A study of Mus musculus with 12 samples.

Results

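The proteasome is the large protease of the cytosol and nucleus that degrades proteins tagged with ubiquitin, and the genes of its subunits were followed in the livers of mice exposed to secondhand smoke (SHS). Members were all genes whose symbol begins with Psma, Psmb, Psmc, Psmd, Psme, Psmf or Psmg and a number, except the immunoproteasome genes Psmb8, Psmb9 and Psmb10. The search found 46 genes with a probe set of their own, of 18193 such genes on the array. Of these, 44 encode proteasome subunits, assembly chaperones, activators or an inhibitor and are counted below. The other 2 are not subunits: Psmc3ip is a cofactor of meiotic recombination that was near the floor, and Psme3ip1 encodes a partner of Psme3. Psme2 was not read, because its probe set names a second gene as well.

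The arrays came from adult male C57BL/6 mice in 3 groups of 4 arrays, each taken as 1 mouse. SHS4m+1m recovery mice (recovery mice below) were exposed to SHS over the whole body for 4 months and then kept in clean air for 1 month, SHS4m mice were exposed for 4 months without recovery, and control mice were sham-exposed to filtered clean air. The study had sham subgroups with and without the recovery time, and the labels do not say to which of them the 4 controls belong, so the age of the controls and the recovery time cannot be told apart. RNA of whole liver was hybridised to the Affymetrix Mouse Genome 430 2.0 array. It reads each transcript with sets of short probes, here called probe sets, and signal is given below as log2 of the deposited intensity with values under 32 set to 32 (log2 of 5).

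The proteasome has a barrel-shaped core of stacked rings. The outer rings are built of alpha subunits (Psma), whose tails form the gate, and the inner rings of beta subunits (Psmb), of which Psmb5, Psmb6 and Psmb7 carry the active sites. A cap binds either end, with a ring of 6 ATPases (Psmc1 to Psmc6) that unfolds substrates and non-ATPase subunits (Psmd) that receive ubiquitin chains and cut them off. Assembly chaperones (Psmg1 to Psmg4, Psmd5, Psmd9 and Psmd10) help to put the core and the cap together, while Psme1, Psme3 and Psme4 encode alternative activators and Psmf1 an inhibitor of the core. In mammals many of these genes are induced together by the transcription factor NFE2L1 when proteasome activity is blocked.

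All 12 arrays were of liver: Alb, the gene of serum albumin, averaged log2 15.71 in recovery, 15.61 in SHS4m and 15.92 in control livers, and the 6 hepatocyte markers summed to log2 17.64 to 18.28 in recovery, 17.87 to 18.03 in SHS4m and 17.98 to 18.18 in control arrays, with none of the 6 called in any comparison. The 6 macrophage and Kupffer cell markers summed to 13.69 to 14.12 in recovery, 13.59 to 13.88 in SHS4m and 13.91 to 14.20 in control arrays, so SHS4m and control arrays did not overlap. Clec4f, a Kupffer cell receptor, fell in SHS4m against control (log2 difference −0.51, limma adjusted p = 0.0173). It was called higher in recovery against SHS4m (0.46, adjusted p = 0.0442), and was at −0.05 in recovery against control. The part of Clec4f in the results below was not tested. The 3 B cell markers summed to 7.42 to 7.86 in SHS4m, 7.97 to 8.59 in recovery and 7.93 to 8.79 in control arrays. The SHS4m sums were thus below all others. No marker of T and NK cells, B cells, neutrophils, stellate cells, endothelial cells or cholangiocytes was called in any comparison. Some of these lay near the floor, where a change can be missed. Group means were log2 5.31 to 5.66 for Cd3e and 5.09 to 5.65 for Krt19. Others were bright, such as Dcn at 12.32 to 12.77. In whole liver, fewer cells of a type and less RNA per cell cannot be told apart. Recovery replicate 72 stood apart in RNA quality. Its actin control probe sets had a ratio of 3′ to 5′ signal of 8.82, against 3.24 to 4.64 on the other 11 arrays. Its Gapdh ratio was 4.52, against 2.24 to 2.95. The actin ratio also differed by group, at 3.24 to 3.9 in control, 3.9 to 4.64 in SHS4m and 4.1 to 8.82 in recovery arrays. No exposed array was thus below a control array. The Gapdh ratio had no such order, with 2.95 on a control array and 2.24 on an SHS4m array. The part of these ratios in the results below was not tested.

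Of the 44 proteasome genes 5 were called in SHS4m against control, 3 in recovery against control and 2 in recovery against SHS4m, and every called difference was below 2-fold. Tests were made with limma on all 45037 probe sets, each gene was read by its brightest probe set, and a gene was called when its Benjamini-Hochberg adjusted p was below 0.05. In SHS4m against control livers 3 of the 44 genes were called higher, where 3.73% of all genes were, and 2 were called lower, where 3.74% of all genes were. In recovery against control livers no gene was called higher, against 1.37% of all genes, and 3 were called lower, against 1.14%. The count of 0 higher goes with 2 genes higher at an unadjusted p below 0.05. In recovery against SHS4m livers no gene was called higher, against 2.01% of all genes, and 2 were called lower, against 1.68%, with no gene higher at an unadjusted p below 0.05. The calls depended on the probe sets fitted and on the scaling of the arrays. With probe sets at the floor on most arrays left out of the fit, Psmd13 in SHS4m against control was the only call left (limma adjusted p = 0.0357). When every array was set to a common median, SHS4m against control had 2 genes higher and 0 lower, and the other comparisons had none. With quantile normalization the counts were 2 higher and 3 lower in SHS4m against control, 0 and 4 in recovery against control, and 0 and 2 in recovery against SHS4m.

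Bright probe sets are called more often, and 37 of the 44 genes averaged log2 10 or more. Among these, 5 were called in SHS4m against control in either direction, where 18.5% of the 3933 genes of such brightness were called. In recovery against control 3 of the 37 were called, where 7.14% of bright genes were, and in recovery against SHS4m 1 was called, where 8.7% were. In SHS4m against control 15 of the 37 had groups that did not overlap, where 33.8% of bright genes did. The same held for 11 of the 37 in recovery against control, where the share of bright genes was 21.7%, and for 3 of the 37 in recovery against SHS4m, where it was 22.6%. At a 2-fold change with an unadjusted p below 0.05, none of the 44 was called in SHS4m against control, where 2.81% of all genes were. That count was 0 in recovery against control, where 1.21% of all genes passed, and 0 in recovery against SHS4m, where 1.93% passed. By the adjusted p these comparisons had the 5, 3 and 2 calls given above.

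At an unadjusted p below 0.05 alone, 18 of the 44 genes passed in SHS4m against control (6 higher and 12 lower), where 22.5% of all genes passed, and 15 of the 37 bright ones, where 42.3% of bright genes passed. The count was 19 in recovery against control (2 higher and 17 lower), where 16.1% of all genes passed, with 17 of the 37 bright ones, where 33.9% of bright genes passed. It was 8 in recovery against SHS4m, all lower, where 18.2% of all genes passed, with 7 of the 37, where 33.8% of bright genes passed.

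The differences were measured closely enough to bound most of them. The 95% interval of the difference lay within 2-fold either way for 41 of the 44 genes in SHS4m against control and for 42 in each of the other comparisons. The genes whose intervals reached 2-fold were Psma8, Psmb11 and Psmg2 in SHS4m against control, Psma8 and Psmg2 in recovery against control, and Psma8 and Psmb11 in recovery against SHS4m. The spread within groups was a median SD of 0.114 on the log2 scale over the 44 genes and 0.138 over all bright genes. It ran between 0.039 for Psma3 and 0.757 for Psma8. Psma8, a core subunit of the testis, was near the floor and reached it on 1 SHS4m and 1 control array. Psmb11, a thymus subunit, was at the floor on 4 recovery, 1 SHS4m and 3 control arrays, so neither is described further.

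**Figure D1:**
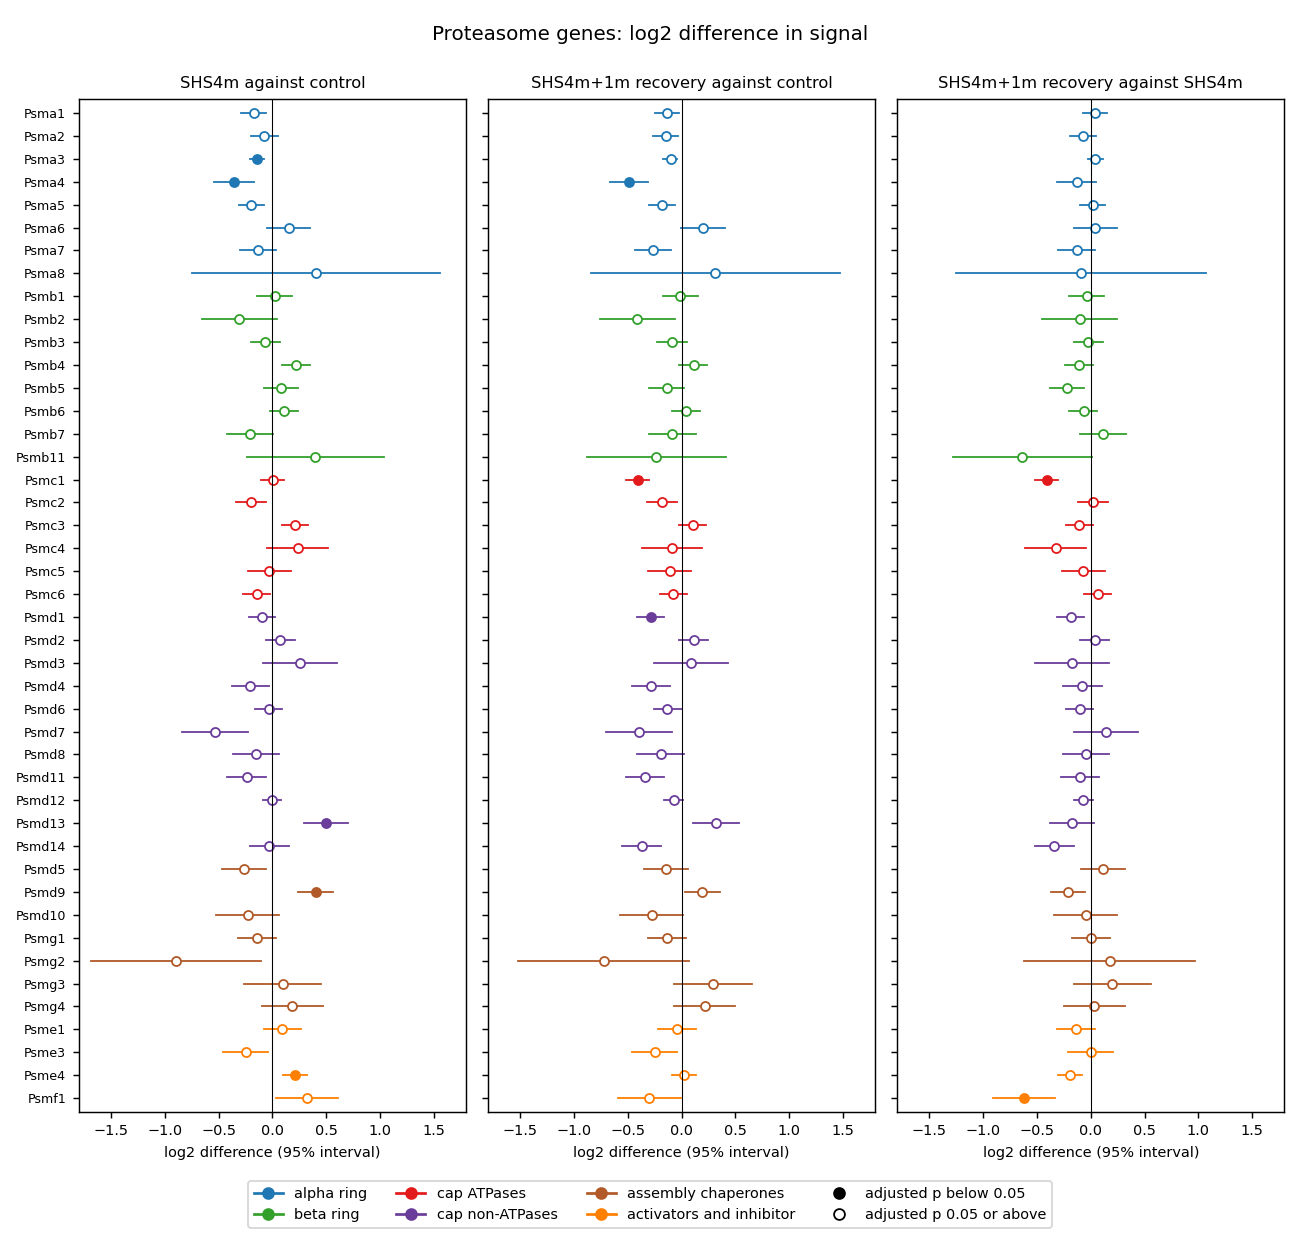
Log2 difference in signal of the 44 proteasome genes (rows, coloured by class) in the 3 comparisons, with SHS4m against control on the left. Points are limma estimates, bars are 95% intervals and filled points have an adjusted p below 0.05. Most points lie within 0.5 of 0, and the filled ones number 5, 3 and 2.

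In SHS4m livers the clearest differences were in single subunits of the cap and its assembly. Psmd13, a non-ATPase of the cap lid, had log2 signals of 10.56, 10.67, 10.48 and 10.61 in SHS4m livers, against 10.14, 10.04, 10.06 and 10.09 in control livers. Every SHS4m array was above every control array. The log2 difference was 0.50 (SE 0.0926), which is 1.41-fold, with a limma adjusted p of 0.0149. Psmd9, a chaperone that in mammals and yeast binds an ATPase subunit while the cap base is assembled, had 10.97, 10.78, 11.10 and 10.99 in SHS4m livers, against 10.64, 10.55, 10.47 and 10.56 in control livers. The groups did not overlap, and the difference was 0.40 (SE 0.0723), or 1.32-fold, with a limma adjusted p of 0.0128. Psme4, an activator that binds the end of the core in place of the cap and is known for the degradation of acetylated histones, had 12.73, 12.82, 12.61 and 12.79 in SHS4m livers and 12.51, 12.52, 12.50 and 12.58 in control livers. Its difference was 0.21 (SE 0.0493), or 1.16-fold, with a limma adjusted p of 0.0371. The calls of Psmd13 and Psmd9 were kept whichever of the 12 arrays was left out. That of Psme4 was kept in 3 of the 12 fits, and was lost without any control array, without SHS4m replicates 66, 67 and 69 or without recovery replicates 70 and 72 (differences of 0.18 to 0.25 over the 12 fits, limma adjusted p 0.0147 to 0.0957).

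The genes that fell in SHS4m livers were both of the alpha ring. Psma4, an alpha subunit whose counterpart in yeast helps to close the gate, had log2 signals of 13.29, 13.40, 13.34 and 13.20 in SHS4m livers, against 13.71, 13.61, 13.70 and 13.62 in control livers. The groups did not overlap, and the difference was −0.35 (SE 0.0807), or 1.28-fold lower, with a limma adjusted p of 0.0339. Psma3, the least variable of the 44 genes, had 14.11, 14.10, 14.14 and 14.09 in SHS4m livers and 14.30, 14.19, 14.22 and 14.29 in control livers. This is a difference of −0.14 (SE 0.0293), or 1.1-fold lower, with a limma adjusted p of 0.0234. Psma4 lost its call without any 1 of the SHS4m or control arrays (differences of −0.39 to −0.32, limma adjusted p 0.0512 to 0.0889 in those 8 fits). Psma3 lost it without control replicates 1 and 4 or SHS4m replicates 66, 67 and 69 (limma adjusted p 0.0548 to 0.0628).

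The promoters of 5 called genes are shown because Psmd13, Psmd9 and Psme4 were higher in SHS4m livers, Psma4 was lower in both exposed groups, and Psmc1 was lower in recovery livers. They run 250 bases before to 50 after the annotated start, 5′ to 3′ on the gene's strand (RefSeq, GRCm38.p6): chr7:140882144-140882443 for Psmd13, chr5:123227940-123228239 for Psmd9, chr11:30771525-30771824 for Psme4, chr9:54950609-54950908 for Psma4 and chr12:100109952-100110251 for Psmc1, each on the plus strand. Capitals mark TGACNNNGC, the core of the antioxidant response element bound by NFE2L1 and NFE2L2, and CGGAAG, the core bound by ETS factors, on either strand.
Psmd13: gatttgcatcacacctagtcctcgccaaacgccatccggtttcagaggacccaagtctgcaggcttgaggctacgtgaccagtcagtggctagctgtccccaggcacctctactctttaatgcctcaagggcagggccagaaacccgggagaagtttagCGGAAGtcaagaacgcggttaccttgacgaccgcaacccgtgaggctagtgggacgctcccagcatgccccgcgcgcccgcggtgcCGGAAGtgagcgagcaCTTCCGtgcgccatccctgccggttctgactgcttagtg
Psmd9: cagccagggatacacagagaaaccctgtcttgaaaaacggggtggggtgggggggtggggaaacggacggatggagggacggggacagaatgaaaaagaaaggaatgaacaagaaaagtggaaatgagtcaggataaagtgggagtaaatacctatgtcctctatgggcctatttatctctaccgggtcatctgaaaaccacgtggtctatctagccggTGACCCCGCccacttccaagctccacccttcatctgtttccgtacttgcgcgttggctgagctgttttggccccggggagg
Psme4: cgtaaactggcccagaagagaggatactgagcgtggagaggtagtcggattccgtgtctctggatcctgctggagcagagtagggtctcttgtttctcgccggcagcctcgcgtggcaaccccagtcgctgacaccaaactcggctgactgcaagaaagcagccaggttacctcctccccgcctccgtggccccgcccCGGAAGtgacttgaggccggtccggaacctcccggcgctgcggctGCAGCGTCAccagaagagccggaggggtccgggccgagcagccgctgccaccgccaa
Psma4: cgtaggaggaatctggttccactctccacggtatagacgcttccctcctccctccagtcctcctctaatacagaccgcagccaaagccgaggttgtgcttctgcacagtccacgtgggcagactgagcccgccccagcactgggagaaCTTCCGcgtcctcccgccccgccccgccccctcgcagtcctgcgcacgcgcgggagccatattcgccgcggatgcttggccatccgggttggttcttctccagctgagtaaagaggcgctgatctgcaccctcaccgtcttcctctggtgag
Psmc1: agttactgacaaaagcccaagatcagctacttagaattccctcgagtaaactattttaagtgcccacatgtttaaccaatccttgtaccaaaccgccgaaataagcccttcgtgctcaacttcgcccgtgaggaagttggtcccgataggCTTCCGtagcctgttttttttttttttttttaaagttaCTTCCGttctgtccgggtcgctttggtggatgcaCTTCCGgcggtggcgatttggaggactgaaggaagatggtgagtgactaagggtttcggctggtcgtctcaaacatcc
The Psmd9 promoter holds 1 antioxidant response core, TGACCCCGC, and no ETS core. The Psme4 promoter holds 1 of each, the antioxidant response core as GCAGCGTCA on the opposite strand. The promoters of Psmd13 and Psmc1 hold 3 ETS cores each and that of Psma4 holds 1, with no antioxidant response core in these windows. A window was given for 36 of the 44 genes, 38 windows in all. TGACNNNGC was in 6 of the 38, or 15.8%, against 12.4% of the 32851 promoter windows of all genes. The 6 belong to Psmb5, Psmb6, Psmc6, Psmd9, Psmd12 and Psme4. CGGAAG was in 60.5% of the proteasome windows and 16.9% of all windows. GGCGGG, the GC box, was in 68.4% and 35.3%, and CCAAT, the NF-Y box, in 34.2% and 37.4%. The marked motifs do not overlap each other in the windows printed, and the 4 motifs were picked after shares of a larger set had been seen. A match is a description of the letters and not a binding site.

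**Figure D2:**
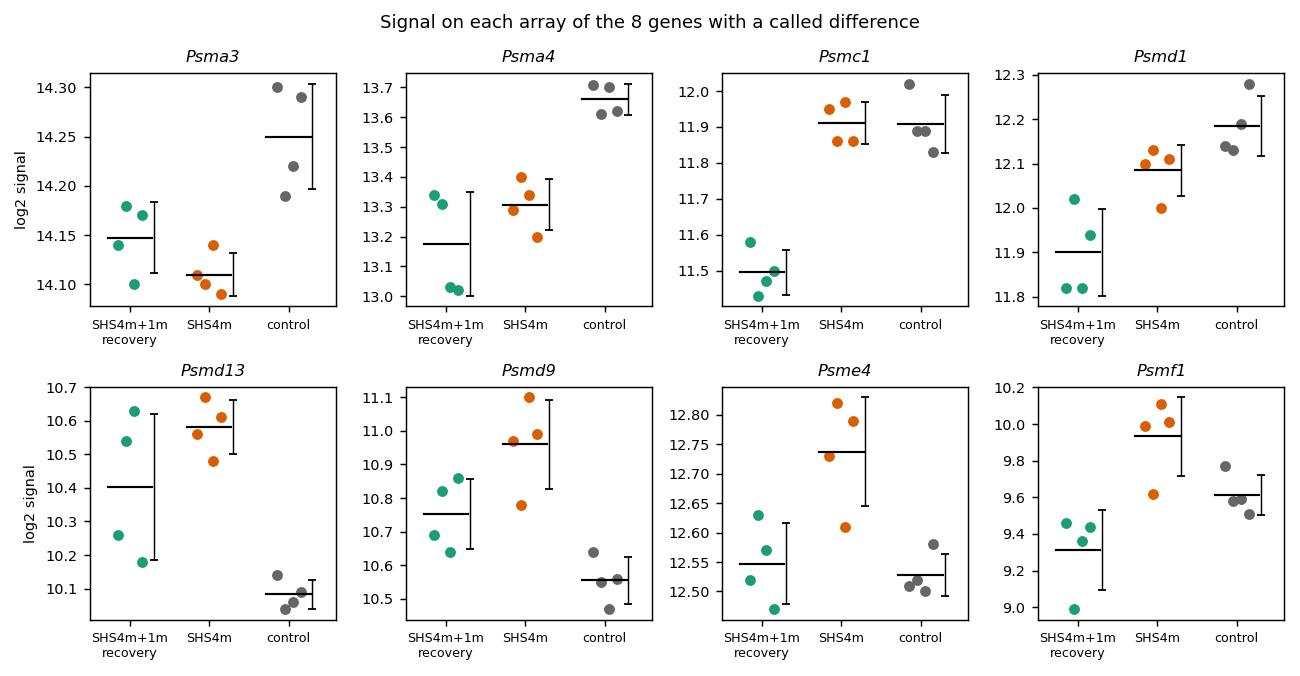
Log2 signal on each array of the 8 genes called in any comparison, with recovery, SHS4m and control arrays side by side. Points are arrays, the horizontal line is the group mean and the bar beside it 1 SD (n = 4). The vertical axes differ between genes. Psmd13 separates SHS4m from control arrays, and Psmc1 separates recovery arrays from both other groups.

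The other members of the alpha ring were not called in SHS4m livers. Of its 8 genes, Psma3 and Psma4 included, 6 were below 0 in SHS4m against control, with a median log2 difference of −0.14, where the median of all genes was −0.01 and 51.1% of them were below 0. Psma1 (−0.17, 95% interval −0.29 to −0.06, limma adjusted p = 0.0835) and Psma5 (−0.20, −0.31 to −0.08, adjusted p = 0.0592) did not pass, nor did Psma2 (−0.07) and Psma7 (−0.14). Psma6 was at 0.15 by its brightest probe set, whose name marks it as open to cross-hybridisation, and at −0.20 by its other bright probe set, and neither was called. Setting every array to a common median moved the ring's median to −0.06 and that of all genes to 0.07. This step shifts all genes of an array alike, so the ring's distance of −0.13 from all genes could not change. With quantile normalization the ring's median was −0.163, where that of all genes was 0.00.

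The beta ring, which holds the active sites, had no called gene in any comparison. Psmb5, the chymotrypsin-like subunit and the target of proteasome inhibitor drugs, had log2 signals of 12.92, 13.01, 12.98 and 13.04 in SHS4m livers and 12.80, 12.88, 12.95 and 12.99 in control livers, a difference of 0.08 with a 95% interval of −0.08 to 0.24. In recovery livers Psmb5 had 12.83, 12.90, 12.54 and 12.79, and the difference was −0.14 against control (−0.30 to 0.02) and −0.22 against SHS4m (−0.38 to −0.06, limma adjusted p = 0.184). The caspase-like subunit Psmb6 differed by 0.11 in SHS4m (−0.02 to 0.24) and 0.04 in recovery (−0.09 to 0.17) against control. For Psmb7, the trypsin-like subunit, these differences were −0.21 (−0.42 to 0.01) and −0.09 (−0.30 to 0.13). The intervals leave room for changes of these sizes and not for a 2-fold change in any of the 3 catalytic genes.

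Among the remaining beta genes Psmb4 came closest to a call in SHS4m livers. It had 13.97, 13.93, 14.09 and 14.03 in SHS4m livers and 13.88, 13.78, 13.72 and 13.75 in control livers, groups that did not overlap, with a difference of 0.22 and a limma adjusted p of 0.0552. A second Psmb4 probe set gave 0.01. Psmb2 had the lowest differences of the ring, −0.31 in SHS4m (95% interval −0.65 to 0.04) and −0.41 in recovery (−0.76 to −0.06) against control, and neither was called. Recovery replicate 72 was at 11.28 for Psmb2, where the other recovery arrays were at 11.89 to 11.99. Psmb1 and Psmb3, which have no active site, were at 0.02 and −0.07 in SHS4m and at −0.01 and −0.09 in recovery against control.

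None of the 6 ATPases of the cap was called in SHS4m against control livers. Psmc3 (0.21, limma adjusted p = 0.0557) and Psmc4 (0.24, adjusted p = 0.393) were above 0 and Psmc2 (−0.20, adjusted p = 0.115) and Psmc6 (−0.15, adjusted p = 0.193) below it, while Psmc5 was at −0.03 and Psmc1 at 0.00 (95% interval −0.11 to 0.11). In recovery livers Psmc1, an ATPase subunit that in yeast takes part in opening the gate of the core, had 11.58, 11.43, 11.47 and 11.50, against 11.95, 11.86, 11.97 and 11.86 in SHS4m livers and 12.02, 11.89, 11.89 and 11.83 in control livers. All 4 recovery arrays were below all 8 others. The difference was −0.41 (SE 0.0488) against control, or 1.33-fold lower, with a limma adjusted p of 0.00688. Against SHS4m it was −0.41 (SE 0.0488), with a limma adjusted p of 0.00418. Both calls of Psmc1 were kept whichever array was left out, replicate 72 included. With probe sets at the floor on most arrays left out of the fit, the difference was still −0.41 in both comparisons, but the limma adjusted p was 0.0608 against control and 0.0536 against SHS4m. With every array set to a common median it was −0.33 against control (adjusted p = 0.13) and −0.41 against SHS4m (adjusted p = 0.0553). Averaging in a second probe set, which was at the floor on 9 arrays, gave −0.11 and −0.12, which were not called.

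The other ATPases in recovery against control livers were at −0.18 (Psmc2, 95% interval −0.32 to −0.04), 0.10 (Psmc3, −0.02 to 0.23), −0.09 (Psmc4, −0.37 to 0.19), −0.11 (Psmc5, −0.31 to 0.09) and −0.08 (Psmc6, −0.20 to 0.05). None of the 5 was called by its brightest probe set. A second probe set of Psmc6 was called lower in this comparison (−0.42, limma adjusted p = 0.0454), and a second probe set of Psmc4 was called lower in recovery against SHS4m (−0.30, adjusted p = 0.0128), where the brightest gave −0.32 (adjusted p = 0.27).

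Of the 11 non-ATPases of the cap, Psmd1 fell in recovery livers. Psmd1, the largest scaffold subunit of the cap base, had 11.82, 12.02, 11.82 and 11.94 in recovery livers, against 12.14, 12.13, 12.19 and 12.28 in control livers. The groups did not overlap, and the difference was −0.28 (SE 0.0539), or 1.22-fold lower, with a limma adjusted p of 0.032. In SHS4m livers Psmd1 had 12.10, 12.13, 12.00 and 12.11, a difference of −0.10 against control (adjusted p = 0.398). The recovery call was lost without control replicates 1, 3 and 4, SHS4m replicate 66 or recovery replicates 70, 72 and 73 (differences of −0.33 to −0.25 over the 12 fits, limma adjusted p 0.0268 to 0.0832).

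Psmd14, the deubiquitinase of the cap, and Psmd7, its partner in the lid, did not pass the threshold, although each had the lowest difference of the class in at least 1 comparison. Psmd14 had 11.97, 11.97, 12.00 and 11.89 in recovery livers, against 12.17, 12.52, 12.14 and 12.37 in SHS4m livers and 12.36, 12.21, 12.41 and 12.33 in control livers, so the recovery arrays lay below all others. The difference was −0.37 against control (95% interval −0.55 to −0.19, limma adjusted p = 0.0521) and −0.34 against SHS4m (−0.52 to −0.16, adjusted p = 0.0642), while SHS4m against control gave −0.03 (−0.21 to 0.15). Psmd7 had 9.73, 10.08, 9.84 and 9.84 in SHS4m livers and 10.45, 10.18, 10.57 and 10.44 in control livers, a difference of −0.54 (−0.84 to −0.23, adjusted p = 0.0512). In recovery livers Psmd7 was at −0.40 against control (−0.70 to −0.09, adjusted p = 0.206). Over the whole class 8 of 11 genes were below 0 in each comparison against control, with medians of −0.03 in SHS4m and −0.20 in recovery. Psmd2, Psmd3, Psmd4, Psmd6, Psmd8, Psmd11 and Psmd12 were not called in any comparison, and lay between −0.24 (Psmd11) and 0.26 (Psmd3) in SHS4m and between −0.34 (Psmd11) and 0.11 (Psmd2) in recovery against control. Psmd4, a ubiquitin receptor of the cap, was at −0.20 in SHS4m (95% interval −0.38 to −0.03) and −0.29 in recovery (−0.46 to −0.11, adjusted p = 0.116) against control. The other bright probe sets of Psmd11, a lid subunit, gave 0.05 and 0.01 in SHS4m and −0.07 and −0.09 in recovery against control.

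Psmd13, the lid subunit that rose in SHS4m livers, was split in recovery livers: replicates 71 and 72 were at 10.54 and 10.63, within the SHS4m range, and replicates 70 and 73 at 10.26 and 10.18, just above the highest control at 10.14. Its difference in recovery against control was 0.32 (95% interval 0.11 to 0.53, limma adjusted p = 0.133). Psmd9 had 10.69, 10.82, 10.64 and 10.86 in recovery livers, a difference of 0.19 against control (0.03 to 0.36, adjusted p = 0.255) and −0.21 against SHS4m (−0.37 to −0.05, adjusted p = 0.207).

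Psma4 was lower in recovery livers too, by a comparison that uses the same control arrays as that of SHS4m. It had 13.34, 13.31, 13.03 and 13.02 in recovery livers, all below the control range, and the difference against control was −0.49 (SE 0.0807), or 1.4-fold lower, with a limma adjusted p of 0.0189. The call was kept in 10 of 12 fits with an array left out and was lost without control replicates 1 (−0.47, adjusted p = 0.0547) and 3 (−0.47, adjusted p = 0.0573). Recovery against SHS4m gave −0.13 (95% interval −0.31 to 0.05). Psma4 was read by a single probe set. The rest of the alpha ring in recovery against control ran between −0.27 (Psma7, 95% interval −0.43 to −0.10, adjusted p = 0.123) and 0.20 (Psma6), Psma8 aside, with Psma1, Psma2, Psma3 and Psma5 at −0.14, −0.15, −0.10 and −0.18 and none called.

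The assembly chaperones included the gene with the lowest difference of the 44 in both comparisons against control. Psmg2, which pairs with Psmg1 to start the alpha ring, had 9.14, 9.18, 9.55 and 9.63 in SHS4m livers, against 10.14, 9.84, 10.47 and 10.67 in control livers. Although the groups did not overlap, the difference of −0.90 had a 95% interval of −1.69 to −0.11 and a limma adjusted p of 0.215. The recovery arrays of Psmg2 ran between 8.68 and 10.30. A second Psmg2 probe set of like brightness gave −0.02 in SHS4m and 0.21 in recovery against control, so its 2 probe sets did not show the same difference. Psmg3 and Psmg4 were above 0 in both comparisons against control (0.09 and 0.18 in SHS4m, 0.29 and 0.22 in recovery), and Psmg1, Psmd5 and Psmd10 below 0 (−0.14 to −0.26 in SHS4m, −0.14 to −0.28 in recovery), none of them called.

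Psmf1, which encodes an inhibitor of the core, fell in recovery against SHS4m livers. It had 9.46, 8.99, 9.36 and 9.44 in recovery livers, against 9.99, 9.62, 10.11 and 10.01 in SHS4m livers, with control livers between them at 9.77, 9.58, 9.59 and 9.51. Recovery and SHS4m arrays did not overlap, and the difference was −0.62 (SE 0.129), or 1.53-fold lower, with a limma adjusted p of 0.0399. Against control the differences were 0.32 in SHS4m (95% interval 0.03 to 0.61, adjusted p = 0.23) and −0.30 in recovery (−0.59 to −0.01, adjusted p = 0.353). The call against SHS4m was kept only without SHS4m replicate 67 and lost without any other array (differences of −0.67 to −0.51 in those 11 fits, limma adjusted p 0.052 to 0.102). Psme1 and Psme3, the other activators, were not called, at 0.09 and −0.25 in SHS4m and −0.05 and −0.25 in recovery against control. A second Psme3 probe set, of mean log2 9.13 where the brightest was at 9.53, gave 0.13 in SHS4m and −0.12 in recovery against control.

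Probe sets of the same gene did not always tell the same story. The 44 genes were read by 96 probe sets, and 12 genes had 2 or more of mean log2 10 or above. For these 12, all such probe sets had the same sign for 9 genes in SHS4m against control, 8 in recovery against control and 11 in recovery against SHS4m. The 2 brightest probe sets of Psmd13 were called in SHS4m against control, at 0.50 and 0.54 (limma adjusted p = 0.0149 and 0.0153). The name of the second marks it as open to cross-hybridisation, like the names of the brightest probe sets of Psma6, Psmb4 and Psmc2. The second probe set of Psmd9 gave 0.76 (adjusted p = 0.0943). For Psme4 the second probe set gave 0.17 in SHS4m against control (adjusted p = 0.27), but another, of mean log2 10.23, gave −0.45 (adjusted p = 0.225), and it was called lower in recovery against control, at −0.84 (adjusted p = 0.0492), where the brightest gave 0.02. For Psmf1 a probe set of mean log2 9.12 was called higher in SHS4m against control (0.45, adjusted p = 0.0441), and in recovery against SHS4m it gave −0.28 (adjusted p = 0.264). Dimmer probe sets of Psmf1, of mean log2 8.41 and 7.20, both gave 0.05 in SHS4m against control. In recovery against SHS4m they gave −0.50 (adjusted p = 0.114) and −0.54 (adjusted p = 0.437). A probe set of Psma5 that was at the floor on 5 arrays was called lower in SHS4m (−0.64, adjusted p = 0.0484) and recovery (−0.81, adjusted p = 0.0349) against control. Which transcripts these probe sets detect was not tested.

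**Figure D3:**
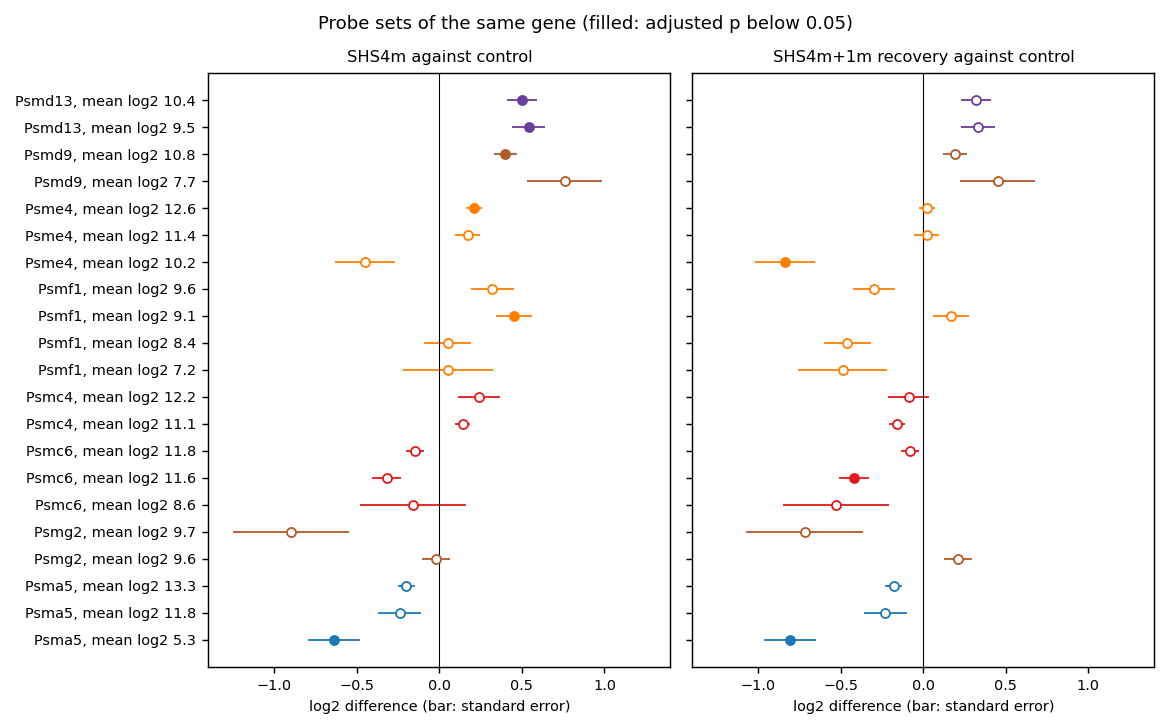
Log2 difference of the probe sets of 8 genes that averaged log2 7 or more, and of a dim one of Psma5, in SHS4m (left) and recovery (right) against control, with the mean log2 signal of each probe set beside the gene. Bars are standard errors and filled points have an adjusted p below 0.05. The probe sets of Psmd13 lie together, while those of Psme4, Psmf1 and Psmg2 lie on both sides of 0 in at least 1 comparison.

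Over all 44 genes the median log2 difference was −0.03 in SHS4m and −0.14 in recovery against control, and −0.07 in recovery against SHS4m, where the medians over all genes were −0.01, 0.00 and 0.00. Of the 44 genes, 32 were below 0 in recovery against control, where 49.3% of all genes were, and 25 were below 0 in SHS4m against control, where 51.1% were. By class, the medians in recovery against control were −0.14 for the alpha ring, −0.09 for the beta ring, −0.10 for the ATPases, −0.20 for the non-ATPases, −0.14 for the chaperones and −0.15 for the activators and inhibitor. Of the 7 chaperones 4 were below 0. With a common median set on every array, the medians over the 44 genes were 0.04 in SHS4m and −0.06 in recovery against control, where those of all genes were 0.07 and 0.08. This step shifts all genes of an array alike, so the distance of the 44 genes from all genes could not change. That distance was −0.025 in SHS4m and −0.136 in recovery. With quantile normalization the medians over the 44 genes were −0.064 in SHS4m and −0.153 in recovery against control, where those of all genes were 0.00.

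Array by array, the median deviation of the 44 genes from their control means was −0.093, −0.068, −0.222 and −0.093 on recovery replicates 70, 71, 72 and 73. It was −0.098, −0.065, −0.029 and −0.036 on SHS4m replicates 66 to 69 and 0.032, −0.038, 0.014 and 0.009 on control replicates 1 to 4. Every recovery array was below every control array, and the lowest was replicate 72, whose actin and Gapdh ratios were the highest of the 12. Over the 3933 bright genes the same median was 0.046 on replicate 72 and between −0.013 and 0.025 on the other 11 arrays. Without replicate 72 the median over the 44 genes in recovery against control was −0.10. The chaperones were at −0.283 on replicate 72 and at 0.02, −0.022 and 0.091 on the other recovery arrays, against −0.004 to 0.091 on the control arrays. The part of RNA quality in these values was not tested.

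**Figure D4:**
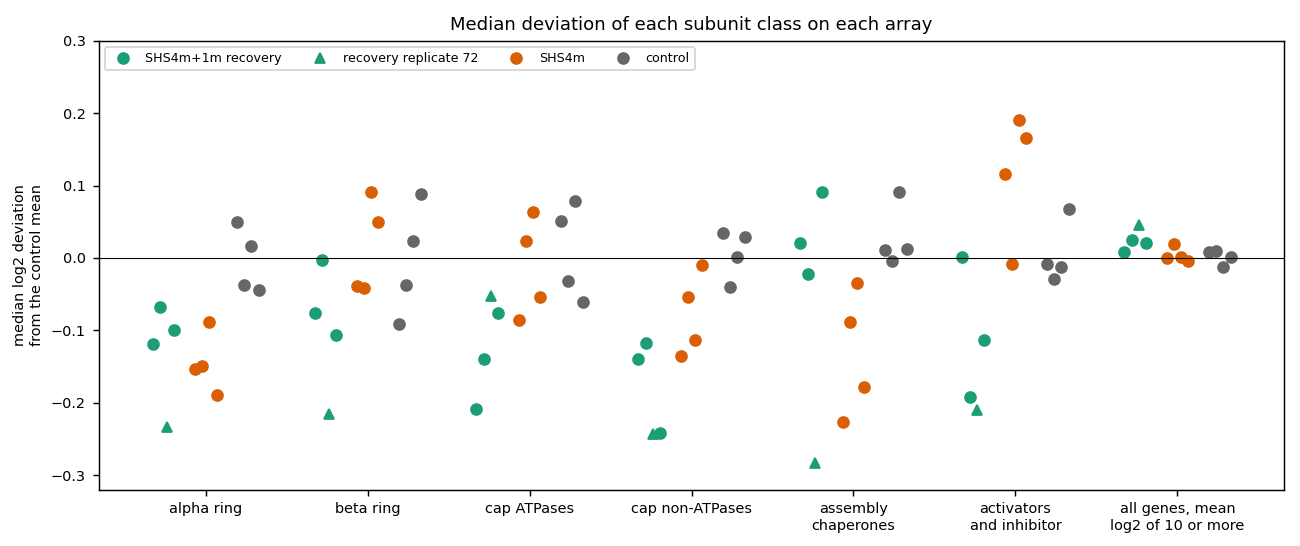
Median log2 deviation from the control mean of the genes of each class on each array, with recovery, SHS4m and control arrays side by side, and at the right the same over the 3933 genes of mean log2 10 or more. Each point is 1 array and the triangle is recovery replicate 72. All 8 exposed arrays lie below the 4 controls for the alpha ring, and replicate 72 is the lowest point in every class but the ATPases.

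Of 39 genes read from 4 lists of genes that work with the proteasome, 1 was called in SHS4m against control, where 7.47% of all genes were called in either direction, 4 (10.3%) in recovery against control, where 2.52% of all genes and 7.14% of bright genes were, and 2 in recovery against SHS4m, where 3.68% of all genes were. Of 15 partners read outside the family (shuttle factors, cap-bound deubiquitinases, the maturation factor Pomp), none was called in SHS4m against control. Ubqln1, a shuttle factor that carries ubiquitinated proteins to the cap, fell in recovery livers, with differences of −0.31 against control (limma adjusted p = 0.0117) and −0.25 against SHS4m (adjusted p = 0.0206). None of the 4 genes of the NFE2L1 axis that were read was called in any comparison, with Nfe2l1 itself at −0.09 in SHS4m and 0.02 in recovery against control. Of 10 genes of ubiquitin activation and conjugation, Ube2k fell in recovery against control (−0.51, adjusted p = 0.0209), and no other call was made in any comparison. Of 10 genes of the p97 segregase, which extracts proteins for degradation, Faf1 rose in SHS4m against control (0.22, adjusted p = 0.0351). Ubxn6 rose (0.41, adjusted p = 0.0496) and Ubxn4 fell (−0.88, adjusted p = 0.0177) in recovery against control, and in recovery against SHS4m Ubxn7 rose (1.30, adjusted p = 0.0301).

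None of the immunoproteasome genes, which replace the catalytic subunits under interferon-gamma, was called in any comparison. Psmb8 had 10.27, 10.22, 10.32 and 10.35 in recovery livers, against 9.87, 9.64, 9.85 and 9.58 in SHS4m livers and 9.95, 9.67, 10.18 and 10.33 in control livers, and the difference in recovery against SHS4m was 0.55 (95% interval 0.26 to 0.85, limma adjusted p = 0.0641). Psmb10 had 10.87, 10.97, 10.78 and 11.13 in recovery livers, 10.44, 10.46, 10.52 and 10.42 in SHS4m livers and 10.67, 10.13, 10.54 and 10.52 in control livers. Its difference in recovery against SHS4m was 0.47 (0.23 to 0.72, adjusted p = 0.0621). In both genes every recovery array was above every SHS4m array. For Psmb10 every recovery array was also above every control array, with a difference of 0.47 (0.22 to 0.72, adjusted p = 0.0692). Psmb8 was at 0.26 in recovery against control (adjusted p = 0.448). Psmb9, whose recovery and SHS4m arrays overlapped, was at 0.38 in recovery against SHS4m (−0.10 to 0.86). Against control Psmb9 was at −0.59 in SHS4m (−1.07 to −0.11, adjusted p = 0.175) and at −0.21 in recovery. Of 7 other interferon-gamma response genes read, Tapbp, a chaperone of peptide loading, was called higher in SHS4m (0.32, adjusted p = 0.0183) and recovery (0.32, adjusted p = 0.0358) against control, and no other was called.

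Among 11 target enzymes of NFE2L2, the relative of NFE2L1 that responds to oxidants, Hmox1 (2.26, limma adjusted p = 0.00684), Nqo1 (0.94, adjusted p = 0.0274) and Txnrd1 (0.52, adjusted p = 0.00691) rose in SHS4m against control and Me1 fell (−0.79, adjusted p = 0.0354). Txnrd1 alone of the 11 was called in recovery against control (0.51, adjusted p = 0.0165), and in recovery against SHS4m Nqo1 fell (−0.92, adjusted p = 0.0492). Of the 6 proteasome genes with TGACNNNGC in their promoter, Psmd9 and Psme4 were called in SHS4m against control. In that comparison 7.47% of all genes and 18.5% of bright genes were called. The other 4, Psmb5, Psmb6, Psmc6 and Psmd12, were at 0.08, 0.11, −0.15 and 0.00 by their brightest probe sets and were not called. The part of the motif in these differences was not tested.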

How the data were processed

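Values were the deposited intensities, which the authors computed with Affymetrix Expression Console (no version given) for 12 arrays and which average 500 on each array after the outer 2% are trimmed. How probes were summarised was not given in the sources used here. Control probe sets were dropped, values under 32 were set to 32, and log2 values of 45037 probe sets were fitted with limma 3.58.1 (R 4.3.3) on all 12 arrays, with no array weights and Benjamini-Hochberg adjustment over all probe sets. Of these probe sets 34945 name 1 gene, 932 name several and 9160 have no name here, by GEO's platform annotation. A gene was read by the brightest probe set that names it alone. On simulated data the test called 30 of 100 probe sets changed by log2 0.5 and 76 of 100 changed by log2 1.0. It also called 4 of 44837 unchanged ones. A difference of 0.5 was thus often missed in the simulation. Of the 44 proteasome genes, 32 had an interval of the difference within 0.5 either way in SHS4m against control. This held for 30 in recovery against control and for 35 in recovery against SHS4m. A gene outside these counts that was not called may still have changed by 0.5. P-values set each group difference against the spread between arrays of a group, drawn in part from all probe sets. Each array was taken as a separate mouse, which the labels do not state. The paper gives more mice per subgroup than there are arrays per group here, and the number of arrays limits the precision.

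Described in full are called genes, the highest and lowest gene of each class, the catalytic subunits, Psmd14, the ATPases, genes near the floor and genes whose probe sets disagree. Members and lists were chosen with earlier results of these data known. Alternatives were quantile normalization, centring, floors of 16 and 64, a filter on low values, mean over probe sets, fits of 8 arrays, a trended prior, array weights and leaving out each array.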

Additional observations from a re-analysis of the deposited data

Results flagged for a closer look

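Among 132 sets of 4 arrays (44 genes in 3 groups), 5 had a value far from the other 3, a share of 3.79%, where chance gives about 1 in 20. Recovery replicate 72 was low for Psmb2, at log2 11.28 where the nearest recovery array was at 11.89, and for Psmg3, at 9.98 where the nearest was at 10.49. SHS4m replicate 66 was low for Psmc2, at 12.70 against 12.96. Control replicate 2 was low for Psmg4, at 8.87 against 9.33, and control replicate 4 was at 5.95 for Psmb11 where the other 3 controls were at the floor.

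The recovery and SHS4m groups differed from each other, by the limma test of their difference, in Psmc1 (−0.41, adjusted p = 0.00418) and Psmf1 (−0.62, adjusted p = 0.0399).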

How the results depend on the processing

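In SHS4m against control, the 3 genes called higher became 1 with probe sets at the floor on most arrays left out and 1 with the mean over probe sets. The 2 called lower became 0 with each array centred, with a floor of 16 or with that filter, and 4 in fits of only the 8 arrays compared or with array weights. In recovery against control, the 3 called lower became 0 with centring or the filter. In recovery against SHS4m, the 2 called lower became 0 with centring, the filter or the mean over probe sets, and 1 with a floor of 16 or in fits of only the 8 arrays compared. Centring moved the median over the 44 genes to 0.0446 in SHS4m and −0.0567 in recovery against control. It moved those of all genes to 0.0695 and 0.0792. Centring shifts all genes of an array alike, so the distance from all genes (−0.025 and −0.136) could not change. Quantile normalization gave medians over the 44 genes of −0.0637 in SHS4m and −0.153 in recovery against control. Psma3 turned to 0.10 (limma adjusted p = 0.8) with the mean over its probe sets, 1 of which is near the floor. Otherwise the cause was not tested. The filter left 34862 probe sets, of which 5.63%, 1.63% and 2.25% were called in the 3 comparisons. In limma the standard error of a gene draws in part on all probe sets in the fit, so the filter changed the tests and not the differences.

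Leaving out 1 array gave 2 to 4 genes higher and 0 to 3 lower in SHS4m against control, with medians of −0.066 to −0.00608. In recovery against control it gave 0 higher and 1 to 4 lower, with medians of −0.143 to −0.10, and in recovery against SHS4m 0 higher and 1 to 2 lower, with medians of −0.0872 to −0.0508. Psmd13 kept its call under all 21 alternatives, Psmd9 under 19 and Psmc1 under 18 in both of its comparisons. No paired analysis was possible because the groups share no replicate number.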
